A study of Bos taurus with 4 samples.

Results

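The chaperone genes described here are the heat shock protein (HSP), DNAJ and chaperonin CCT families of cattle, as carried by a bovine oligonucleotide array. They were chosen by the gene symbol in the array's platform annotation, with earlier results of these data known. The families HSPA, HSPB, HSPD, HSPE, HSPH, HSP90, DNAJA, DNAJB, DNAJC, CCT2 to CCT8 and TCP1 gave 118 probes, 78 annotated symbols and 77 genes of the 15216 named on the array. HSPA1A and HSPA1B, near-identical copies, were merged under HSPA1A in the current RefSeq table. Of the 77 genes, 49 passed the signal filter, with 67 probes, and 28 did not.

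The study compared 2 poly(A) tail fractions of RNA from the same oocytes. The A150 fraction holds RNA with tails of at least 150 nucleotides, per the labels, released from poly(A)-binding beads at 75 °C. RNA released earlier, at 42 °C, was not used here. The A- fraction holds RNA that passed through the beads or washed off them, with tails of at most 50 nucleotides per the labels. Both fractions came from each of 4 pools of 200 Holstein oocytes at the germinal vesicle stage, stripped of their cumulus cells and taken from cow ovaries collected at slaughter and carried on ice. RNA of both fractions had been depleted of ribosomal RNA and was amplified before labelling. Each pool gave 1 two-colour array, with A150 in Cy5 and A- in Cy3 on arrays 1 and 2 and the dyes swapped on arrays 3 and 4. A value below is the log2 ratio of A150 over A- signal on an array, so it is positive where a message gave more signal in A150. Each array was centred along spot brightness, so a ratio is relative to probes of similar brightness on that array. A ratio cannot tell tail length apart from the amount of each message recovered in a fraction or copied in the amplification.

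Chaperones bind proteins that are not yet folded or have lost their fold. HSP70 proteins hold short unfolded stretches in a cycle of ATP hydrolysis that DNAJ proteins start and that HSP110 and other exchange factors reset. HSP90 acts later, on nearly folded clients such as kinases and receptors, and the CCT ring encloses actin and tubulin while they fold. HSPD1 and HSPE1 form the folding chamber of the mitochondrial matrix, and HSPA9 pulls imported proteins into that matrix. A fully grown oocyte lives on messages it made earlier, and in oocytes tail length is tied to whether a message is stored or translated.

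Signal set how much could be measured. On arrays 1 to 4 a spot above the level of the negative-control spots was found for 42, 19, 46 and 49 of the 49 chaperone genes in A150, and for 46, 31, 23 and 41 of them in A-. Array 2 thus had the fewest chaperone genes above that level in A150, and array 3 the fewest in A-. Only 8 of the 49 genes were above it on every array in A150 and in A-. Across the 49 genes, the ratios of 2 arrays correlated at r = 0.055 to 0.38, a description over genes that share arrays, and genes are not independent replicates. All 17 oocyte markers on the array gave signal above background in at least 1 fraction of an array. Of these, 16 passed the signal filter. On all 4 arrays, 11 were above background in A150 and 6 in A-. The summed spot signal of the 17 ranged from 182748 to 185727 in A150 and from 107385 to 149711 in A-. Of 25 cumulus and granulosa cell markers, 9 were above it on no array in either fraction, FSHR, LHCGR, FOXL2 and AMH among them. Only 2, SERPINE2 and STAR, were above it on every array in A150 and in A-, and 9 of the 25 passed the signal filter. The summed spot signal of the 25 ranged from 34035 to 50878 in A150 and from 23431 to 60934 in A-. Of 5 blood and immune markers, 1 was above background on no array and 0 were above it on all arrays in either fraction. The signal filter was passed by 3 of the 5. Their sums were 1968 to 8739 in A150 and 2608 to 13226 in A-, over all 5. The part of such cells in the results below was not tested.

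Among the 49 measured genes, more chaperone messages had a mean ratio on the A150 side than on the A- side, but no gene passed the test. A positive mean ratio was found for 33 genes and a negative one for 16. The share of positive genes was 67.3%, against 50.6% of all 7795 genes tested. The median chaperone ratio was 1.09, 0.22, 0.65 and 0.45 on arrays 1 to 4, a mean of 0.60 ± 0.37 (SD, n = 4). The same median over all genes tested was 0.05 ± 0.11. A position on the A150 side was not particular to chaperones. The 16 measured oocyte markers had a median of 0.95 ± 0.37, with 12 positive and 4 negative. For the 9 measured cumulus and granulosa cell markers it was -0.006 ± 0.36, with 4 positive and 5 negative. On each array the chaperone median was above 0. With all 77 genes and no signal filter, the chaperone median was 0.14 ± 0.16, against 0.02 ± 0.04 over all 15216 genes, and 44 of the 77 genes were positive (57.1%, against 50.5%). The filter bears on these counts, since 12 of the 49 genes reached 3 arrays above background in A150 but not in A-. Of those 12, 10 were positive, a share close to that of all such genes tested, 1664 of 2042. Another 29 of the 49 genes reached 3 arrays in each fraction, with 21 positive and 8 negative, against 1472 positive of 3269 such genes in all.

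At an adjusted p under 0.05, limma called 0 chaperone genes in either direction, and 0% of all genes in either direction. Read at an unadjusted p under 0.05, 11 of the 49 genes lay toward A150 (22.4%, against 9.72% of all genes) and 2 toward A- (4.08%, against 4.19%). A ratio above 0 on all 4 arrays was found for 10 chaperone genes, or 20.4%, against 13.7% of all genes. One below 0 on all 4 was found for 4 genes, or 8.16%, against 8.89%. The shares of chaperone genes were above the background on the A150 side and near it on the A- side. The signal filter bears on these shares too. Among the 11 genes, CCT4, HSPH1, DNAJC5, DNAJB1 and HSP90AB1 reached 3 arrays above background in A150 but not in A-. All of these but DNAJC5 were also among the 10 genes above 0 on all 4 arrays. These shares are a description, and no test was run on them. Chaperone genes also varied more between arrays, with a median SD of 1.13 against 0.79 for all genes tested.

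The groups did not share one position. Median ratios averaged 2.02 ± 0.98 for the 3 mitochondrial HSP genes, 1.13 ± 0.35 for the 3 HSP90 genes and 0.92 ± 0.65 for the 9 CCT genes (SD, n = 4 arrays). They averaged 0.28 ± 0.45 for the 8 measured HSP70 and HSP110 genes, and 0.17 to 0.48 with 1 array left out. They averaged 0.24 ± 0.42 for the 23 measured DNAJ genes, 0.11 to 0.38 with 1 array left out, and -0.07 ± 0.21 for all 41 DNAJ genes with no filter. HSP90 and CCT had a positive median on all 4 arrays. So did the mitochondrial group by the brightest probe of each gene, but with probes averaged its median was -0.33 on array 2 and averaged 1.48 ± 1.32. HSP70 with HSP110 was negative on array 3 (-0.33), and DNAJ was negative on array 2 (-0.06) and array 4 (-0.18). The lowest HSP90 median, 0.74, was above the highest HSP70 and DNAJ medians, 0.62 and 0.63, while CCT overlapped all of these groups. No test was run between groups. Outside DNAJ 20 of 26 genes were positive (76.9%), and within DNAJ 13 of 23 (56.5%).

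**Figure D1:**
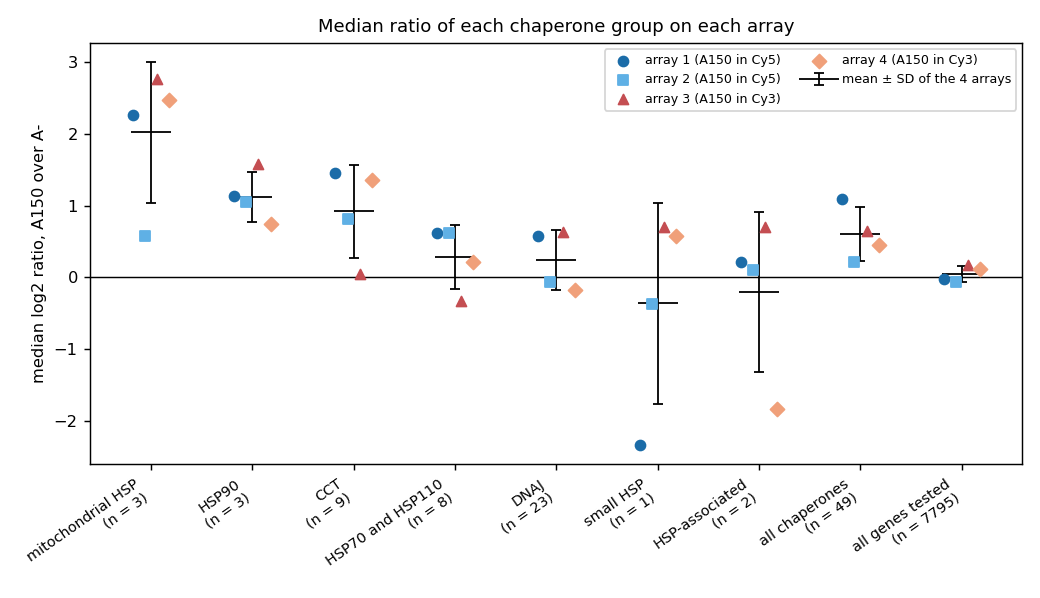
Median log2 ratio of A150 over A- (vertical axis) for each chaperone group and for all genes tested, with 1 point per array and the mean ± SD of the 4 arrays; n is the number of genes. By the brightest probe of each gene, the mitochondrial HSP, HSP90 and CCT medians are above 0 on every array, and the DNAJ medians lie on both sides.

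The cytosolic HSP90 genes gave even ratios on the A150 side. HSP90AA1, the stress-inducible cytosolic HSP90, had ratios of 1.13, 0.87, 1.58 and 0.92 on arrays 1 to 4. All 4 lay on the A150 side within a narrow range, and A150 and A- spots were above background on every array. Its mean was 1.13 ± 0.32 (SD, n = 4), or 2.18-fold higher in A150 (limma adjusted p = 0.162). In normalized log2 signal, it read 13.25, 13.45, 13.16 and 13.72 in A150, against 12.12, 12.58, 11.58 and 12.80 in A-. The lowest A150 signal was above the highest A- signal.

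HSP90AB1, the constitutive cytosolic form, had ratios of 0.78, 1.32, 1.53 and 0.74. Its mean was 1.09 ± 0.39 (SD, n = 4, limma adjusted p = 0.179), close to that of HSP90AA1, with A- signal above background on 2 arrays only. HSP90B1, the form of the endoplasmic reticulum, read 1.38, 1.06, 3.39 and -0.25 by its brightest probe. That gives 1.39 ± 1.51 (SD, n = 4, limma adjusted p = 0.417), with array 3 high and array 4 on the other side. Its second probe stood at -0.35 ± 1.60, so HSP90B1 has no settled side.

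The 3 mitochondrial HSP genes each had a positive mean ratio by their brightest probe. HSPE1, the lid of the matrix folding chamber, had ratios of 2.02, 1.38, 2.77 and 1.26, all on the A150 side. The normalized log2 signal was 12.58, 12.20, 11.04 and 12.04 in A150, against 10.55, 10.83, 8.27 and 10.78 in A-. Its mean ratio of 1.86 ± 0.69 (SD, n = 4) is 3.62-fold (limma adjusted p = 0.123). The A- spot of HSPE1 was above background on 3 of 4 arrays, and it was dimmest on array 3, where the ratio was highest.

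HSPD1 encodes the barrel of that chamber and neighbours HSPE1 on its chromosome, in the RefSeq table of assembly ARS-UCD2.0. Its brightest probe read 2.26, 0.58, 2.08 and 3.16, a mean of 2.02 ± 1.07 (SD, n = 4, limma adjusted p = 0.166). Its other kept probe read -3.78, -1.24, -1.40 and -0.22, a mean of -1.66 ± 1.50. The 2 probes of HSPD1 lay on opposite sides on all 4 arrays, and their average was 0.18 ± 0.97, so no direction can be given for the gene. Which transcripts either probe detects was not analysed here, since no probe sequence was used.

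HSPA9, the mitochondrial HSP70, read 2.63, -0.89, 4.14 and 2.47. Array 2 was the exception, and there the A150 spot was not above background. The mean was 2.09 ± 2.12 (SD, n = 4, limma adjusted p = 0.371), with A- signal above background on 1 array only.

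The CCT ring is built of different subunits, and 7 of its 9 genes had a positive mean ratio. CCT5 had the smallest spread of these 7, with ratios of 1.21, 1.32, 0.60 and 0.85. All 4 arrays lay on the A150 side, for a mean of 0.997 ± 0.330 (SD, n = 4), or 2.00-fold (limma adjusted p = 0.188). CCT4 read 2.42, 1.41, 0.04 and 2.08, a mean of 1.49 ± 1.05 (SD, n = 4, limma adjusted p = 0.26). No array had its A- spot well above background, so CCT4 passed the filter through A150 alone. Its A- signal was also raised, where lower, to the array's dimmest A- signal above background. The mean A150 signal was then 2.7952-fold higher, without the spread of the arrays, almost the measured 2.8045-fold. That value is thus no separate bound on the difference. On array 3 the ratio was close to 0, and the difference did not pass the test.

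CCT8 read 2.89, 0.90, 0.65 and 1.03, positive on every array and highest on array 1. CCT8 averaged 1.37 ± 1.03 (SD, n = 4, limma adjusted p = 0.286) and its A150 and A- spots were above background on every array. CCT7 read 1.46, 0.81, -0.03 and 1.36 (0.90 ± 0.68, SD, n = 4). Array 3 was thus the lowest for CCT4, CCT5, CCT7 and CCT8.

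The remaining subunits had no even direction. CCT2 read 3.23, -1.41, 2.89 and 1.38 (1.52 ± 2.12, SD, n = 4), CCT3 read 1.48, -0.65, 0.65 and 1.89 (0.84 ± 1.12), and TCP1, the alpha subunit, read 0.36, 1.38, -1.12 and 2.33 (0.74 ± 1.48). Each of the 3 had 1 array on the A- side. CCT6A, the zeta subunit, had ratios near 0 on every array (-0.01, -0.24, 0.05 and -0.02). It averaged -0.06 ± 0.13 (SD, n = 4), the smallest SD of any chaperone gene, with signal above background on 2 arrays in each fraction. Its mean without array 2 was 0.0032, so CCT6A has no side.

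CCT6B, a copy of the zeta subunit known from testis, was the 1 CCT gene below 0 on all arrays. Its brightest probe read -0.74, -0.63, -0.23 and -0.42 (-0.51 ± 0.23, SD, n = 4, limma adjusted p = 0.456). Its other 2 kept probes stood at -0.15 and 0.01, so the probes of CCT6B cover a range that includes 0. In all, 3 CCT genes were positive on every array and 1 was negative on every array.

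**Figure D2:**
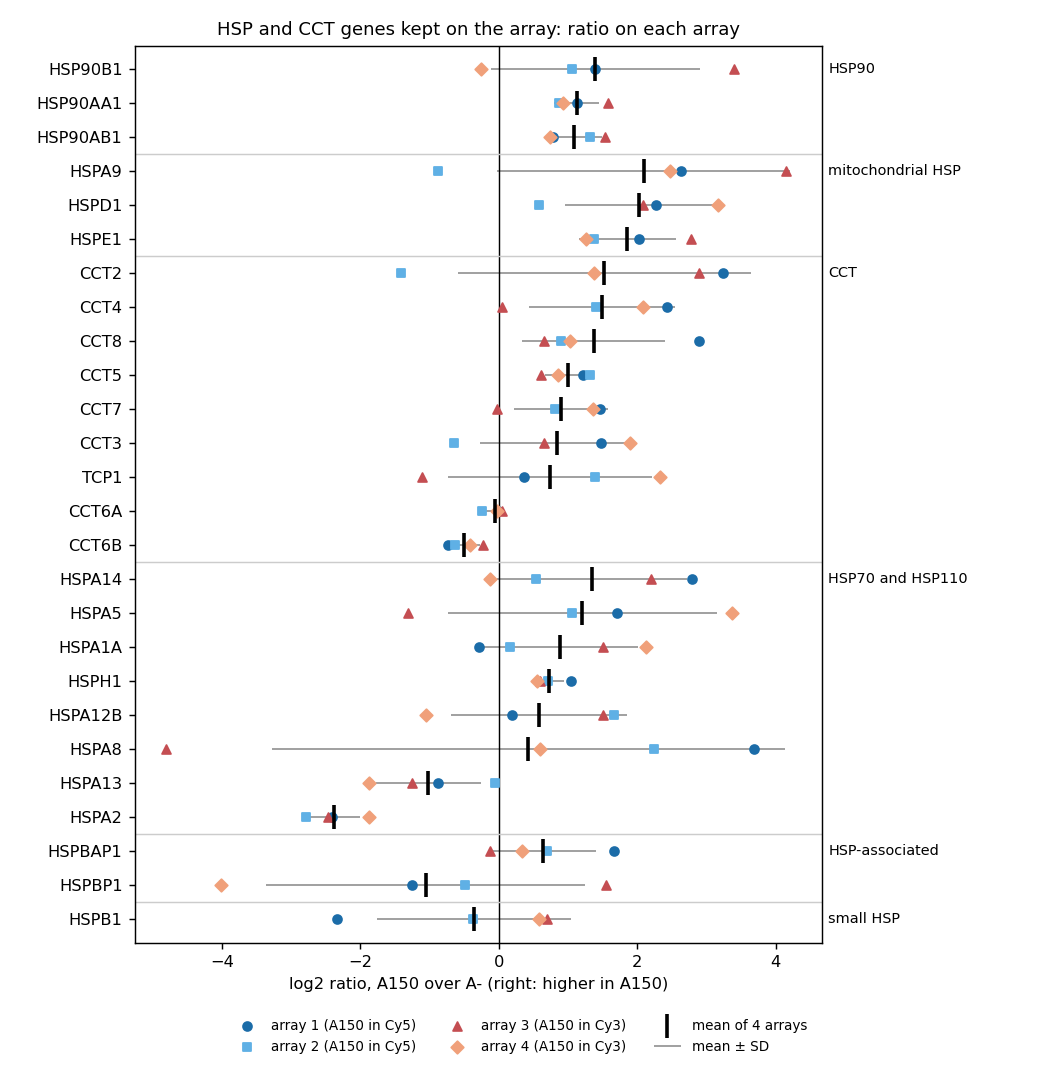
Log2 ratio of A150 over A- (horizontal axis) on each of the 4 arrays for the 26 HSP and CCT genes that passed the signal filter, by group, with the mean as a vertical bar and the mean ± SD as a grey line. HSPA2 lies between -2.79 and -1.87, with the lowest mean, and HSPA8 runs from -4.80 on array 3 to 3.69 on array 1.

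Gene means in the HSP70 group ran from -2.39 to 1.35. HSPA2, an HSP70 that mouse spermatocytes need to pass meiosis, had the lowest mean ratio of the 49 genes. Its ratios were -2.40, -2.79, -2.48 and -1.87 on arrays 1 to 4. HSPA2 read 10.15, 10.63, 10.76 and 10.81 in normalized log2 signal in A150, against 12.56, 13.42, 13.23 and 12.68 in A-. Every A- signal was above every A150 signal. The mean ratio was -2.39 ± 0.38 (SD, n = 4), or 5.22-fold higher in A-, and its limma adjusted p of 0.0889 was the smallest of the 49 genes.

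A second probe of HSPA2 read -2.01, -2.30, -0.83 and -0.01, a mean of -1.29 ± 1.06. Both probes lay on the A- side on all 4 arrays, with the second close to 0 on array 4. Tested as probes over all 19453 kept probes, the brighter HSPA2 probe had a limma adjusted p of 0.0634. HSP70 genes are similar in coding sequence, and whether these probes also bind messages of related genes was not analysed here.

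HSPA13, an atypical HSP70 of microsomes, was the other HSP70 gene below 0 on all arrays, at -0.88, -0.06, -1.26 and -1.87. It averaged -1.02 ± 0.76 (SD, n = 4, limma adjusted p = 0.322), with A150 signal above background on 1 array only.

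HSPA8, the constitutive cytosolic HSP70, gave the largest disagreement between arrays in the chaperone set. Its ratios were 3.69, 2.24, -4.80 and 0.59. In spot brightness before normalization it read 11609, 5596, 1298 and 8572 in A150, against 1463, 2607, 13393 and 5032 in A-. Array 3 was therefore reversed against array 1 in both fractions, and no chaperone spot was saturated. The mean was 0.43 ± 3.71 (SD, n = 4, limma adjusted p = 0.927). It was 2.17 without array 3 and -0.66 without array 1, so HSPA8 has no direction.

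HSPA5, the HSP70 of the endoplasmic reticulum, read 1.70, 1.06, -1.32 and 3.37 (1.20 ± 1.94, SD, n = 4), with array 3 again on the other side. HSPA14, a ribosome-associated HSP70, read 2.79, 0.54, 2.20 and -0.13 (1.35 ± 1.37, SD, n = 4). HSPA1A, the stress-inducible HSP70, read -0.28, 0.16, 1.51 and 2.12 (0.88 ± 1.13). The probe annotated as HSPA1B gave a similar course, -0.16, -0.89, 1.33 and 2.15, and the 2 copies cannot be told apart. Neither HSPA5, HSPA14 nor HSPA1A kept 1 side on all arrays.

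HSPH1, an HSP110 that exchanges nucleotide on HSP70, had the most even course of its group. It read 1.04, 0.70, 0.60 and 0.56, always on the A150 side, for a mean of 0.72 ± 0.22 (SD, n = 4, limma adjusted p = 0.286). Its A- signal was above background on 1 array only. HSPA12B, a distant HSP70 relative, read 0.19, 1.66, 1.50 and -1.05 (0.58 ± 1.27). The other 5 genes of the group, HSPA4, HSPA4L, HSPA6, HSPA1L and HSPA12A, did not pass the signal filter.

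**Figure D3:**
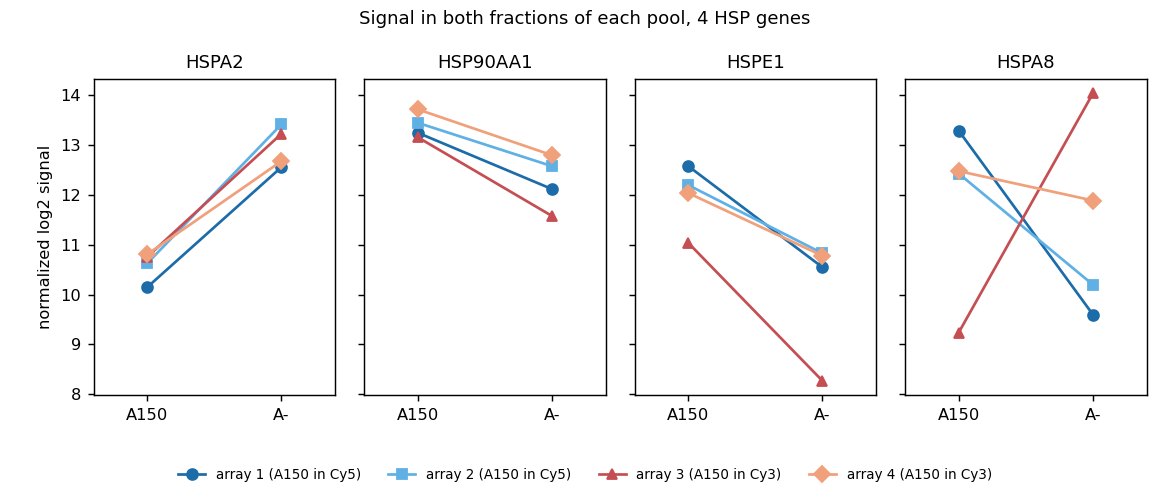
Normalized log2 signal (vertical axis) in A150 and in A- for HSPA2, HSP90AA1, HSPE1 and HSPA8, with 1 line per array. The lines of HSPA2 all go up toward A-, those of HSP90AA1 and HSPE1 all go down, and those of HSPA8 cross, with 9.24 in A150 and 14.04 in A- on array 3.

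Small HSPs, which hold unfolded proteins without using ATP, were almost absent from the measured set. Only HSPB1 of 6 genes passed the filter, and HSPB2, HSPB3, HSPB6, HSPB8 and HSPB9 did not. HSPB1 read -2.34, -0.37, 0.69 and 0.57 (-0.36 ± 1.40, SD, n = 4, limma adjusted p = 0.845), with array 1 far below the rest. It was 0.30 without array 1, so its side rests on that array.

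The 2 HSP-associated genes were not even either. HSPBAP1, a binding partner of HSPB1, read 1.67, 0.70, -0.13 and 0.33 (0.64 ± 0.76, SD, n = 4), and its second probe stood at -0.08 ± 0.52. HSPBP1, an exchange factor of HSP70, read -1.26, -0.49, 1.55 and -4.02 (-1.05 ± 2.30) by its brightest probe. The second probe of HSPBP1 read 0.65, 1.22, 0.37 and 0.16, all positive, though it was above background in A- on no array. The probes of HSPBP1 thus lay on opposite sides.

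DNAJ proteins bring substrates to HSP70 and trigger its ATP hydrolysis, and they were the largest family. Of 41 genes 23 passed the filter, with 13 positive and 10 negative. Their mean ratios ran from -1.51 to 2.10, 20 of the 23 had arrays on both sides of 0, and 16 had an SD above 1. Arrays on both sides were also common elsewhere, in 6033 of all 7795 genes tested and in 15 of the 26 chaperone genes outside DNAJ. An SD above 1 was found for 3114 of all genes and for 15 of those 26. By class, 1 of 3 DNAJA, 4 of 5 DNAJB and 8 of 15 DNAJC genes were positive.

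On the A150 side, DNAJB1, a main cytosolic partner of HSP70, read 3.42, 2.50, 0.78 and 0.45. All 4 arrays were positive, for a mean of 1.79 ± 1.41 (SD, n = 4, limma adjusted p = 0.279), with A- signal above background on 2 arrays only. A second, dimmer probe of DNAJB1 stood at -1.12 ± 1.56 and was above background in A150 on no array, so the side of DNAJB1 depends on the probe. DNAJA3, the DNAJ partner of HSPA9 in mitochondria, read 0.14, 0.92, 0.63 and 1.44 (0.78 ± 0.55, SD, n = 4, limma adjusted p = 0.361). DNAJA3 was positive on every array, and its A150 and A- spots were above background on each.

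DNAJC5, the cysteine string protein of secretory vesicles, had the highest mean of the 49 genes, from ratios of 3.58, -0.18, 2.25 and 2.77. Array 2 was the 1 array not on the A150 side. The mean was 2.10 ± 1.62 (SD, n = 4, limma adjusted p = 0.264), with A- signal above background on 2 arrays only. DNAJC15, a DNAJ of the inner mitochondrial membrane, read 1.09, -0.45, 0.53 and 3.29 (1.12 ± 1.58, SD, n = 4).

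On the A- side, DNAJC27, which carries a RAB-like GTPase domain, read -0.23, -0.81, -3.95 and -1.05 (-1.51 ± 1.66, SD, n = 4, limma adjusted p = 0.419). It was the 1 DNAJ gene below 0 on all arrays, but a second probe stood at 1.50 ± 1.44. That second probe was above background in A- on no array, and the brightest probe in A150 on 2 arrays. DNAJB4, a cytosolic relative of DNAJB1, read 0.58, 0.23, -2.87 and -2.79 (-1.21 ± 1.87). DNAJC11, a mitochondrial membrane protein, stood at -0.57 ± 1.05. DNAJC6, the auxilin that uncoats clathrin vesicles, stood at -0.57 ± 1.33, with 0.33 ± 0.80 for its second probe.

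The other 15 measured DNAJ genes had mean ratios from -0.71 to 1.17, with 9 positive and 6 negative. All 15 had arrays on both sides. The gene with the most kept probes was DNAJC17, a splicing-linked DNAJ, whose 4 probes stood at 0.87, 0.74, 0.61 and 0.65. These 4 probes shared 1 side and were close in mean, but not on each array. The brightest, which stands for the gene, read -1.62, 2.37, 1.26 and 1.47 (SD 1.73). Only 1 of the 4 was positive on every array, with an SD of 0.22. The 18 DNAJ genes below the filter included DNAJC3, DNAJB9 and DNAJC7.

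**Figure D4:**
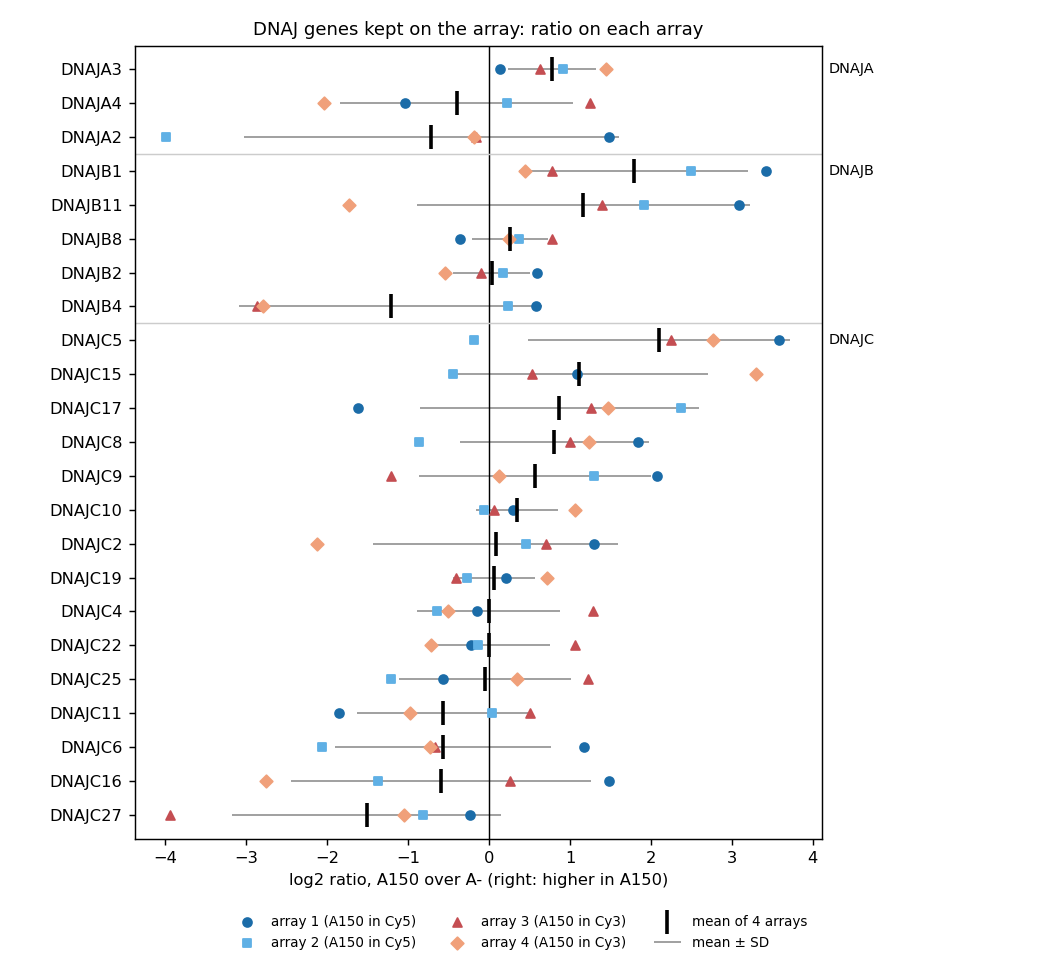
Log2 ratio of A150 over A- (horizontal axis) on each of the 4 arrays for the 23 DNAJ genes that passed the signal filter, by class, with the mean as a vertical bar and the mean ± SD as a grey line. DNAJA3 and DNAJB1 lie to the right of 0 on all arrays and DNAJC27 to the left, while the other 20 genes have arrays on both sides.

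Where a chaperone gene had more than 1 kept probe, the probes often disagreed. Of 14 such genes, 10 had probes with mean ratios on opposite sides of 0. The same share over all genes with several kept probes was not computed, so this is not read as particular to chaperones. Some of these values lay near 0, as for DNAJC4 (-0.0033 ± 0.88 and 0.30 ± 0.37), and others far from it, as for HSPD1 and DNAJC27. The 4 genes whose probes kept 1 side were HSPA2 on the A- side and HSPA1A, DNAJC10 and DNAJC17 on the A150 side. Counted as probes, 44 of 67 were positive and 23 negative, without the share of positive probes over the array, which was not computed. At an unadjusted p under 0.05, 13 lay toward A150 and 4 toward A-, against 8.03% and 5.45% of all 19453 kept probes. No chaperone probe passed after adjustment, where 0% of probes passed toward A150 and 0.0617% toward A-.

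**Figure D5:**
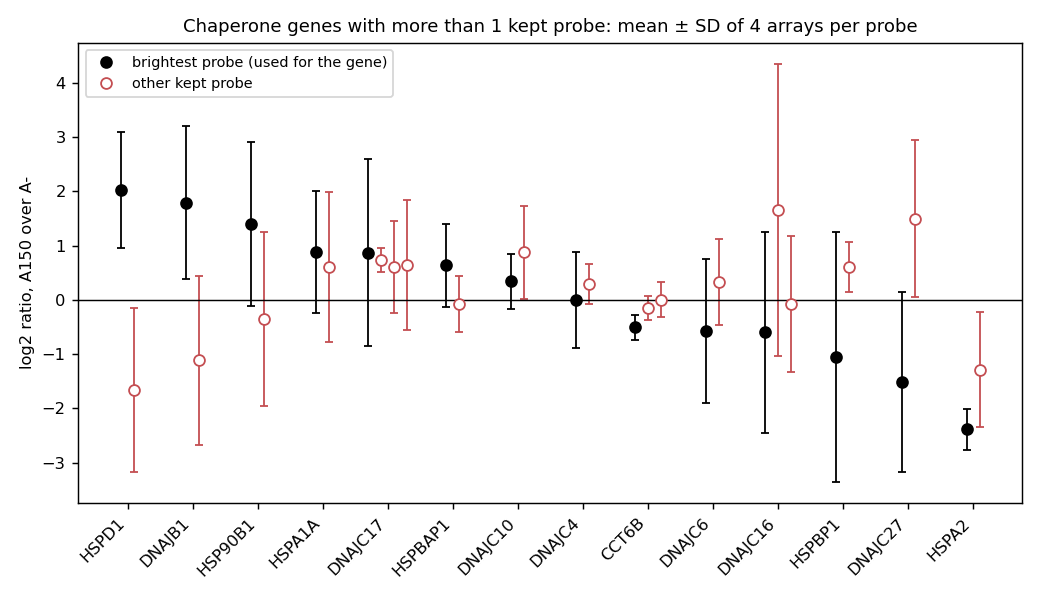
Mean log2 ratio of A150 over A- with SD of the 4 arrays (vertical axis) for each kept probe of the 14 chaperone genes with more than 1, the brightest probe in black and the others in open red. Both HSPA2 probes and all 4 DNAJC17 probes keep 1 side, and HSPD1, DNAJB1 and DNAJC27 have probes on both sides.

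Ratios parted by dye orientation in some chaperone genes, and in many other genes of the array as well. For 11 genes, or 22.4%, both arrays with A150 in Cy5 lay above both arrays with A150 in Cy3, against 16.9% of all genes. For 4 genes, or 8.16%, both lay below, against 25.9%. The chaperone share was thus above that of all genes in the first direction and below it in the second. The examples that follow had the smallest limma p for dye among the 49 genes. For DNAJB4 the mean was 0.40 with A150 in Cy5 and -2.83 with A150 in Cy3, a difference of 3.24 (limma adjusted p = 0.366). DNAJB1 had 2.96 and 0.62 (adjusted p = 0.553), and HSPA1A had -0.06 and 1.81 (adjusted p = 0.569). At an adjusted p under 0.05, limma called a dye difference in 0 chaperone genes and 0% of all genes. At an unadjusted p under 0.05 there were 5 of 49 chaperone genes and 639 of all 7795. Each orientation holds 2 pools, so dye and pool cannot be told apart within these genes. HSPA2 averaged -2.60 with A150 in Cy5 and -2.17 with A150 in Cy3, and HSP90AA1 averaged 0.999 and 1.25, so both genes were close in the 2 orientations.

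Among the 28 chaperone genes below the signal filter, 7 had no spot above background in either fraction on any array, HSPB3, HSPB8 and DNAJC7 among them. Another 9 were above it on 1 array and 12 on 2. With so little signal no direction is given for these 28 genes. The 8 genes with A150 and A- spots above background on every array were HSP90AA1, HSP90B1, CCT8, DNAJA3, DNAJC8, DNAJC9, HSPBAP1 and DNAJC6. Of these 7 were positive (87.5%) and 1, DNAJC6, negative, against 59.0% positive among the 919 genes measured that fully. Of the 8, only HSP90AA1, CCT8 and DNAJA3 were positive on all arrays.

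Genes that work with the chaperones were read from lists of partners. Of 20 HSP90 co-chaperones and relatives 14 were measured, 10 positive and 4 negative, with a median of 0.65 ± 0.51 (SD, n = 4 arrays). At an unadjusted p under 0.05, 5 lay toward A150 and 2 toward A-, against 9.72% and 4.19% of all genes, and 0 passed after adjustment in limma. PTGES3, the p23 co-chaperone that stabilises HSP90 on its client, read 1.25, 1.92, 1.79 and 2.85 (1.95 ± 0.66, limma adjusted p = 0.121). Its other 2 probes stood at 2.06 and 0.75, on the same side. AHSA1, which activates the HSP90 ATPase, read 2.51, 3.70, 1.47 and 1.79 (2.37 ± 0.99, limma adjusted p = 0.123), with 0.81 ± 2.13 for a second probe. CHORDC1, an HSP90-binding protein, stood at -2.03 ± 1.25 and FKBP5, an immunophilin of steroid receptor complexes, at -1.09 ± 0.44, both negative on all arrays.

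Of 20 ER folding factors 10 were measured, 8 positive and 2 negative, with a median of 1.20 ± 0.46 (SD, n = 4 arrays). At an unadjusted p under 0.05, 5 lay toward A150 and 1 toward A-, against the same 9.72% and 4.19%. PDIA3, a disulfide isomerase for glycoproteins, read 3.23, 2.09, 0.43 and 2.16 (1.98 ± 1.16, limma adjusted p = 0.181). PDIA6, another disulfide isomerase, stood at 1.12 ± 0.43, but its other 2 probes stood at -0.23 and -0.45. PDIA4 (-1.24 ± 1.003) and UGGT1 (-0.98 ± 3.42), the glucosyltransferase of glycoprotein quality control, were the 2 negative genes.

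Of 17 prefoldin and CCT cofactor genes 15 were measured, 9 positive and 6 negative, with a median of 0.37 ± 0.39. At an unadjusted p under 0.05, 1 lay toward A150 and 0 toward A- in limma, against 9.72% and 4.19% of all genes. That gene was PFDN2, a subunit of the prefoldin that delivers actin and tubulin to CCT. PFDN2 read 1.91, 2.36, 1.69 and 1.44 (1.85 ± 0.39, limma adjusted p = 0.105), with 0.88 ± 0.82 for a second probe. TBCC, a tubulin folding cofactor, stood at 1.27 ± 1.26, while TBCD, another one, stood at -0.50 ± 0.30 and PDCL, a phosducin-like cochaperone, at -0.17 ± 0.23.

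Exchange factors and import partners of HSP70 were split between the sides. Of 14 genes 11 were measured, 5 positive and 6 negative, with a median of -0.06 ± 0.16 and 0 at an unadjusted p under 0.05 in limma. GRPEL1 (0.87 ± 1.18) and GRPEL2 (-0.58 ± 1.57), exchange factors of HSPA9, and ST13 (0.64 ± 1.58) and BAG6 (-0.58 ± 1.14), both cochaperones of HSP70, all had arrays on both sides. Of 6 genes of heat shock factors and their binding partners 2 were measured, both with a negative mean and neither at an unadjusted p under 0.05 in limma. HSF2BP, a binding partner of HSF2, stood at -0.76 ± 0.73 and HSF4 at -0.11 ± 0.34, while HSF1 and HSF2 were not among the measured genes.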

How the data were processed

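Each of 4 two-colour arrays held the A150 and A- fractions of 1 oocyte pool. What was deposited per array is spot and local background intensity in each scan (mean and median), with nothing subtracted, per the file headers. A further table holds the authors' log2 ratios. Against A150 over A- ratios from the uncorrected spots its columns correlated at 0.996 to 0.999, which settles direction; column medians were -0.011 to 0.020, and the exact scale is unknown.

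Spot means, with median local background, were corrected by normexp (offset 50) and loess-normalized within arrays, with control spots at weight 0 (limma 3.58.1, R 4.3.3). Signs were set by the dyes in the labels. Above background meant a spot more than 2 SD over the average of 153 negative-control spots. Probes above it in A150, in A- or in both on at least 3 arrays were kept (19453 of 43794), and the fraction could differ between arrays. The brightest kept probe stood for a gene (7795). Platform symbols were updated through RefSeq (20025 current, 1524 updated, 241 kept). Ratios were tested against 0 with lmFit and eBayes, with Benjamini-Hochberg adjustment over all genes or probes, threshold 0.05, and checked on simulated data. The pairing by pool is within each ratio. The p-values rest on the joint spread of pools and arrays, and the number of arrays limits the precision. The value for CCT4 with its dim A- spot raised used single channels after loess and Aquantile.

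Members, lists and groups were chosen with earlier results of these data known. Named were all measured HSP and CCT genes, the DNAJ genes with the smallest p on each side (4 each) or under 0.05 with an even sign, and 2 genes per side of each partner list. HSPB3, DNAJC3 and other unmeasured or further genes were named after their values were seen. Alternatives covered background, normalization, filter, dye, probe choice, spot summary, the authors' table and each array left out.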

Additional observations from a re-analysis of the deposited data

Results flagged for a closer look

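The ratio of CCT8 on array 1, 2.894 on the log2 scale, stood apart from the other 3 arrays (0.90, 0.65 and 1.03) by more than Dixon's critical value for 4 values allows. Without array 1 the mean was 0.86. This was the 1 case among 45 sets of array values looked at, the named genes and the group medians, and chance gives about 5% of such sets.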

How the results depend on the processing

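The number of named chaperone genes past the adjusted threshold was 0 under each of 14 alternatives, and 30 of 34 named genes kept the sign of their mean under all of those in which they were measured. The exceptions were HSPA8 (-0.66 to 2.17 with 1 array left out), HSPB1 (-0.71 to 0.30), CCT6A (-0.093 to 0.0032) and DNAJC6 (0.036 without background correction). Some alternatives could not move the mean of a named gene. A dye term leaves it as it is with balanced orientations, and the filter settings used the same probe. Averaging over probes changes only genes with more than 1 kept probe. The limma adjusted p of HSPA2 ranged from 0.0672 to 0.292. The median of all chaperone genes was 0.60 and stayed positive, at 0.14 with all 77 genes and no signal filter. The HSP90 median was 1.79 with median centring. The DNAJ median was -0.051 without normalization within arrays, where all genes shift too, and -0.066 without the filter. The small HSP median, HSPB1 alone, ranged from -0.71 to 0.30 with 1 array left out. The median of the HSP-associated pair, -0.21, was 0.10 with median centring, 0.028 with the mean over probes, and -0.51 to 0.34 with 1 array left out. With both fractions above background only HSPBAP1 of the pair remained, at 0.64. The cause was not tested for any of these. The median over all genes, 0.05, was -0.023 with median centring, 0.30 among the 956 genes above background in both fractions and -0.36 without normalization within arrays, where that of the chaperones was 0.43. The HSP70, mitochondrial and small HSP groups had no value with both fractions above background. In the authors' deposited table HSPA2 averaged -1.996 ± 0.440, HSP90AA1 1.06 ± 0.44 and HSPE1 1.29 ± 0.42 (SD, n = 4).

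Over all genes, 0 passed on either side. Without normalization within arrays 89 passed toward A150 and 49 toward A-. Toward A-, 1 gene passed with both fractions above background and 1 in the authors' table. Probes toward A150 numbered 0, and 300 without normalization within arrays, 116 with both fractions above background, 2 with median spot intensity and 10 with mean local background, an alternative chosen after seeing the data. Probes toward A- numbered 12, and 355, 128, 30 and 24 under those same settings. That number was 0 without background correction, with median centring, without the filter, in the authors' table, with a dye term, and with any 1 array left out (0 to 0). Signal limits the rest: 41 of the 49 genes lacked a spot above background in some fraction of an array.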
